A study of Mus musculus with 19 samples.

Results

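The chemokines and chemokine receptors of the mouse were followed through RNA-Seq libraries of 7 tissues, of inguinal white adipose tissue (iWAT) and of brown adipose tissue (BAT). A gene was taken when its symbol begins with Ccl, Ccr, Cxcl, Cxcr, Xcl or Xcr followed by a digit, or with Cx3c. Ccl19, Ccl21a, Cxcl13, Ccr7 and Cxcr5, which organise lymph nodes, were left out, and so were pseudogene symbols that end in -ps with or without a number. The rule found 58 gene IDs with 54 symbols, 37 of ligands and 17 of receptors, among the 55740 gene IDs listed in any table. All 58 are listed for the 7 tissues and for BAT, whereas the iWAT table, which lists 13756 genes, holds 35 of them, 23 ligands and 12 receptors.

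Chemokines are small secreted proteins that bind to matrix glycans and guide leukocytes along concentration gradients, and their receptors are G protein-coupled receptors carried mainly by those leukocytes. Inflammatory chemokines are switched on by signals such as NF-kB and interferons, while homeostatic ones position cells in lymphoid and other tissues. In adipose tissue, ligands of Ccr2 are best known for the recruitment of monocytes in obesity.

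The study asked how Musclin, a peptide secreted by skeletal muscle, affects thermogenic fat. MCK-Musclin mice carry the Musclin coding sequence under the muscle creatine kinase (MCK) promoter, which drives expression in muscle, and were backcrossed to C57BL/6J. Several founder lines were made, and which of them gave these libraries is not given in the sources used here. In the cold experiment, iWAT and BAT came as 3 biological replicates each of MCK-Musclin and wild-type (WT) mice, males aged 5 months that ate chow and spent 1 week at 8 °C. The 7 tissues, tibialis anterior muscle, heart, liver, white adipose tissue, brown adipose tissue, small intestine and brain, came from C57BL/6J WT mice on chow diet with 1 library each and no cold exposure named. There are 19 libraries in all, and all values are FPKM, a level scaled for transcript length and library size, with unknown depth.

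Some libraries stand apart, and their values precede the results. Summed FPKM of 5 skeletal muscle markers, led by Tnnt3, was 4.19, 382 and 2051 in iWAT of WT replicates 1 to 3 and 4.65, 68.3 and 79.3 in MCK-Musclin replicates 1 to 3, so WT replicate 3 held the most muscle RNA. In BAT the same sum was 243, 392 and 244 in WT and 900, 405 and 589 in MCK-Musclin replicates 1 to 3, and all 5 of these markers met the cutoff explained below in the higher direction under each of 4 scalings, but 2 of the 5 without WT replicate 1. MCK-Musclin replicate 1 of BAT also had the highest sum of 7 macrophage markers, 56.6 against 27.3 to 35.5 in the other 5 libraries. Of those 7 markers Csf1r met the cutoff, with a log2 fold change of 0.61. Without MCK-Musclin replicate 3, or when libraries were centred on adipocyte markers, 2 of the 7 met it. The labelled tissues carried their markers: adipocyte markers summed to between 10689 and 13351 in iWAT, and the 4 brown adipocyte markers, led by Ucp1, to between 5830 and 7278 in BAT. Among the 7 tissues, each labelled tissue held the highest sum of its own markers: skeletal muscle 62093, heart 18325, liver 34929, white adipose 11386, brown adipose 2111, small intestine 2918 and brain 4883 FPKM.

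In cold iWAT 7 of the 31 members tested were higher with the transgene by a p and fold change cutoff, and 0 were lower. The cutoff asks for p under 0.05 before adjustment together with more than 0.5 of change on the log2 scale. Its thresholds are the study's, which put them on DESeq2 values, while here they are put on limma p-values and log2(FPKM + 1) differences, so the calls are not those of the study. Among all 12197 genes tested 5.04% were higher and 0.902% were lower by it. Among them were the ligands Cxcl10, Ccl12, Ccl20, Cxcl1 and Ccl2 and the receptor Cxcr2. None of the 31 members had a limma adjusted p (Benjamini-Hochberg over all genes tested) under 0.05, and the same holds for all 12197 genes, of which the share called is 0%. At an unadjusted p under 0.05 there were 10 members and 2012 genes. All 3 MCK-Musclin libraries lay above all 3 WT libraries for 9 members, beside 17.9% of all genes, and below them for 1, beside 5.44%. The median log2 fold change of the 31 was 0.30, against 0.06 for all genes tested, and 26 of them were above 0 (24 with TPM, 24 with median-ratio scaling and 29 when centred on adipocyte markers), as were 7482 of the 12197 genes. As shares of the 31, the 7 at the cutoff are 22.6% and the 9 without overlap 29.0%. Both counts include Ccl20, which passed the filter only through the MCK-Musclin libraries. With a filter of 1 FPKM in each group, chosen after seeing the data, 6 of 30 members were higher at the cutoff and 8 had no overlap, beside 4.94% and 17.8% of 11974 genes. Leaving out WT replicate 1 gave 15 members in place of 9 without overlap, beside 25.6% in place of 17.9% of all genes, and 1, Ccl7, by limma adjusted p (0.0426, in a range over the alternatives up to 0.580). Leaving out WT replicate 2 gave 1 member lower at the cutoff, Ccl27a at -0.58, beside 0.958% of all genes.

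Log2 fold changes here are on the log2(FPKM + 1) scale, which understates the change of low genes, and limma tested each gene whose FPKM averaged 1 or more over the 6 libraries. All p-values rest on 3 biological replicates per group. With 3 mice against 3, an exact permutation test could not go below p = 0.1. Cx3cl1, Ccl28, Ccr4 and Ccr9 are listed in iWAT but were not tested, with FPKM between 0.111 and 1.17. Ccl20 had a WT mean of 0.446 FPKM, under that filter. In bulk tissue, more cells of a type and more RNA per cell cannot be told apart.

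**Figure D1:**
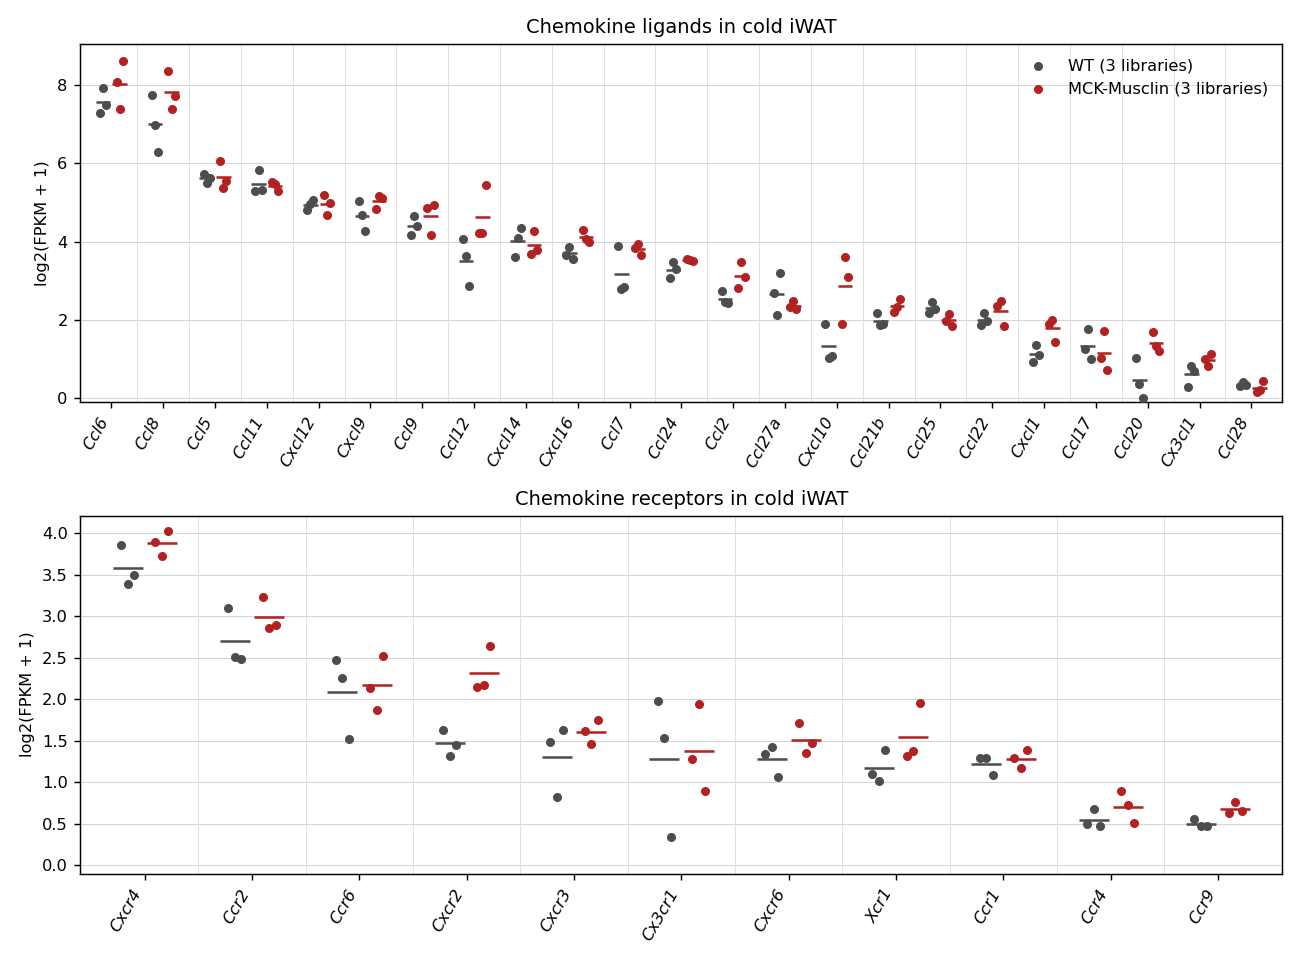
Level of 34 listed members in the 6 cold iWAT libraries, as log2(FPKM + 1), for ligands (upper panel) and receptors (lower panel) in order of mean level; points are libraries and bars are group means. Cxcr2, Cxcl10, Cxcl1, Ccl20, Ccl2 and Ccl12 have all MCK-Musclin points above all WT points, although for Cxcl10 the gap between 2.70 and 2.73 FPKM is narrow and closes with TPM and with median-ratio scaling.

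Among ligands of the neutrophil receptor, Cxcl1 was the only 1 listed in iWAT. Cxcl1, which draws neutrophils through Cxcr2, had an FPKM of 0.914, 1.55 and 1.16 in WT replicates 1 to 3 and 2.72, 3.01 and 1.72 in MCK-Musclin replicates 1 to 3. The groups did not overlap, with MCK-Musclin replicate 3 the nearest to WT. Its log2 fold change was 0.65 (SE 0.19), with a limma adjusted p of 0.181 after Benjamini-Hochberg adjustment.

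The interferon-induced ligands Cxcl10 and Cxcl9 both act on Cxcr3 of activated T cells and NK cells. Cxcl10 had an FPKM of 2.70, 1.05 and 1.11 in WT replicates 1 to 3 and 2.73, 11.2 and 7.55 in MCK-Musclin replicates 1 to 3. MCK-Musclin replicate 1 was next to the highest WT library, and the other 2 were well above it, while with TPM or median-ratio scaling the groups overlapped. The fold change of 1.54 on the log2 scale (SE 0.44) had an adjusted p of 0.180 by limma. It was the largest of the members with a pseudocount of 1 and all 6 libraries. With 0.1 Ccl20 was at 2.30 and Cxcl10 at 1.99, and without MCK-Musclin replicate 2 Ccl12 was at 1.32 and Cxcl10 at 1.16. Exons of Cxcl10 overlap those of Art3, and alignment without strand cannot tell reads of the 2 genes apart. Cxcl9, the more abundant of the pair, was at 32.1, 24.5 and 18.3 FPKM in WT and at 27.7, 34.8 and 33.4 in MCK-Musclin libraries. The groups overlapped, with a log2 fold change of 0.37 (SE 0.20) and a limma adjusted p of 0.389, and it met the cutoff at 0.57 without WT replicate 1 and was 0.18 without WT replicate 3.

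The monocyte ligands Ccl2, Ccl7, Ccl8 and Ccl12 are neighbours on chromosome 11 and belong to the monocyte chemoattractant protein group. Ccl2, the main ligand of Ccr2, was at 5.68, 4.51 and 4.35 FPKM in WT replicates 1 to 3 and at 6.04, 10.2 and 7.56 in MCK-Musclin replicates 1 to 3, without overlap. Its log2 fold change was 0.59 (SE 0.19; limma adjusted p = 0.197), and without MCK-Musclin replicate 2 it was 0.42, under the cutoff. Ccl12, another Ccr2 ligand, was at 15.7, 11.3 and 6.28 FPKM in WT and at 17.6, 17.6 and 42.9 in MCK-Musclin libraries. MCK-Musclin replicate 3 was the highest by far, and the other 2 lay just above WT replicate 1. Ccl12 had a log2 fold change of 1.11 (SE 0.41; limma adjusted p = 0.249), and did not meet the cutoff without MCK-Musclin replicate 3 (0.70, unadjusted p = 0.0763), WT replicate 3 (0.79, unadjusted p = 0.0922) or WT replicate 2 (1.17, unadjusted p = 0.0554). Ccl8 was the second most abundant member, at 213, 125 and 76.6 FPKM in WT and 325, 166 and 209 in MCK-Musclin libraries. The groups overlapped because WT replicate 1 was high, and the log2 fold change of 0.82 (SE 0.39) had a limma adjusted p of 0.341. Without WT replicate 1 Ccl8 met the cutoff at 1.19, as it did at 1.03 without MCK-Musclin replicate 2, while it was 0.46 without WT replicate 3 and 0.55 without MCK-Musclin replicate 1. Ccl7 was at 13.9, 5.92 and 6.20 FPKM in WT and at 13.3, 14.4 and 11.6 in MCK-Musclin libraries, with the same high WT replicate 1. Its log2 fold change was 0.63 (SE 0.29; limma adjusted p = 0.326), and without WT replicate 1 it was 0.99 with a limma adjusted p of 0.0426, the lowest of a range from 0.0426 to 0.580 over the alternatives. With that library left out, 86 of all genes passed an adjusted p of 0.05, and Ccl7 was the only member among them; without any other single iWAT library no member did.

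Among ligands of mucosal and lymphoid tissue, Ccl20, which binds Ccr6 on B cells and on some T cells and dendritic cells, was low. Ccl20 had an FPKM of 1.05, 0.290 and 0 in WT replicates 1 to 3 and 2.22, 1.54 and 1.29 in MCK-Musclin replicates 1 to 3. No library overlapped, and WT replicate 3 is listed at 0. The log2 fold change was 0.94 (SE 0.27; limma adjusted p = 0.181), or 2.30 with a pseudocount of 0.1 and 1.49 with TPM, and the gene did not pass the filter when MCK-Musclin replicate 1 or 2 was left out. Ccl21b, a ligand of Ccr7 that guides cells into lymph nodes, was at 3.55, 2.63 and 2.72 FPKM in WT and 3.63, 4.07 and 4.75 in MCK-Musclin libraries. They did not overlap, with a log2 fold change of 0.38 (SE 0.14; limma adjusted p = 0.253) that did not reach 0.5. Ccl21b has near-identical copies, so its value is uncertain, and a copy named Ccl21d in the other tables is listed in iWAT under another symbol, Gm21541, which the rule does not take. Ccl25, the ligand of the gut-homing receptor Ccr9, was the only member with all MCK-Musclin libraries below all WT libraries. It was at 3.50, 4.46 and 3.87 FPKM in WT and 2.92, 3.41 and 2.61 in MCK-Musclin libraries, with a log2 fold change of -0.31 (SE 0.13; limma adjusted p = 0.294). Exons of Ccl25 overlap those of Elavl1, and reads of the 2 cannot be told apart without strand.

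The eosinophil ligands Ccl11 and Ccl24 act through Ccr3. Ccl24 was at 7.41, 10.2 and 8.80 FPKM in WT and 10.8, 10.5 and 10.3 in MCK-Musclin libraries, a narrow gap with a log2 fold change of 0.25 (SE 0.12; limma adjusted p = 0.367), or 0.14 without WT replicate 1. Ccl11 was at 38.0, 55.4 and 39.2 FPKM in WT and 44.7, 43.6 and 37.9 in MCK-Musclin libraries. Its groups overlapped, and the log2 fold change of -0.05 changed sign under other settings. Cxcl16, a transmembrane ligand of Cxcr6, was at 11.7, 13.6 and 10.8 FPKM in WT and 18.8, 15.9 and 14.9 in MCK-Musclin libraries. All MCK-Musclin libraries were above WT, and the log2 fold change of 0.43 (SE 0.13; limma adjusted p = 0.185) was under the cutoff, which it passed at 0.51 without WT replicate 2. Its exons overlap those of Zmynd15.

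The most abundant ligands did not separate the groups. Ccl6, a ligand made by myeloid cells, had the highest mean level, at 154, 242 and 179 FPKM in WT and 270, 167 and 392 in MCK-Musclin libraries. MCK-Musclin replicate 2 lay within the WT values, and the log2 fold change of 0.47 (SE 0.31; limma adjusted p = 0.484) was 0.79, past the cutoff, without that library and 0.18 without MCK-Musclin replicate 3. Ccl5, a ligand made by T cells and NK cells, was at 51.9, 44.0 and 48.4 FPKM in WT and 65.5, 40.4 and 45.6 in MCK-Musclin libraries. Cxcl12, the stromal ligand of Cxcr4, was at 27.0, 29.9 and 32.7 FPKM in WT and 35.3, 24.7 and 30.7 in MCK-Musclin libraries. The MCK-Musclin values of both genes spanned the WT values, with log2 fold changes of 0.04 for Ccl5 and 0.01 for Cxcl12, whose 95% intervals ran from -0.38 to 0.46 and from -0.33 to 0.35. The other 5 ligands tested, Ccl9, Ccl17, Ccl22, Ccl27a and Cxcl14, overlapped between the groups, with log2 fold changes from -0.31 to 0.24. Ccl27a, a skin-homing ligand whose exons overlap those of Il11ra1, met the cutoff in the lower direction at -0.58 without WT replicate 2 and was -0.04 without WT replicate 3. Summed over the ligands, FPKM was 620, 627 and 492 in WT and 899, 617 and 905 in MCK-Musclin replicates 1 to 3, and Ccl6 or Ccl8 was the top member in each library.

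All 10 receptors tested had a log2 fold change above 0, from 0.06 to 0.85, beside 61.3% of all 12197 genes as deposited. They were also above 0 with TPM, median-ratio scaling and adipocyte centring. Without WT replicate 3, however, Ccr1 (-0.01), Ccr6 (-0.20) and Cx3cr1 (-0.39) were below 0. So were Ccr6 (-0.08) without MCK-Musclin replicate 3 and Cx3cr1 (-0.20) without MCK-Musclin replicate 2. Cxcr2, the neutrophil receptor for Cxcl1, was at 2.1, 1.5 and 1.73 FPKM in WT replicates 1 to 3 and 3.43, 3.50 and 5.25 in MCK-Musclin replicates 1 to 3. The groups were well apart, with MCK-Musclin replicate 3 the highest. Its log2 fold change of 0.85 (SE 0.17) had the lowest unadjusted p of the members, 0.00135, and a limma adjusted p of 0.143.

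Cxcr4, the receptor of Cxcl12 on most leukocytes, was the most abundant receptor, at 13.5, 9.49 and 10.3 FPKM in WT and 13.9, 12.2 and 15.3 in MCK-Musclin libraries. Ccr2, the monocyte receptor of Ccl2, was at 7.55, 4.71 and 4.62 FPKM in WT and 8.39, 6.26 and 6.45 in MCK-Musclin libraries. Both overlapped because WT replicate 1 was above 1 or more MCK-Musclin libraries, each with a log2 fold change of 0.30 and limma adjusted p of 0.365 for Cxcr4 and 0.480 for Ccr2. Without single libraries Cxcr4 ranged from 0.20 to 0.44 and Ccr2 from 0.18 to 0.49. Ccr6, the receptor of Ccl20, was at 4.57, 3.79 and 1.86 FPKM in WT and 3.38, 2.66 and 4.72 in MCK-Musclin libraries. Its groups were mixed, with a log2 fold change of 0.09 (SE 0.27). Set beside their ligands, Cxcr2 and Cxcl1 both met the cutoff, whereas Ccr6 with Ccl20, Cxcr3 with Cxcl10 and Ccr2 with Ccl2 and Ccl12 had only the ligand past it. Cxcl9, which also acts on Cxcr3, and the monocyte ligands Ccl7 and Ccl8 did not meet the cutoff. Neither gene met it for Cxcr4 with Cxcl12 or Cxcr6 with Cxcl16. The receptors Ccr1, Cx3cr1, Cxcr3, Cxcr6 and Xcr1, overlapped between the groups.

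**Figure D2:**
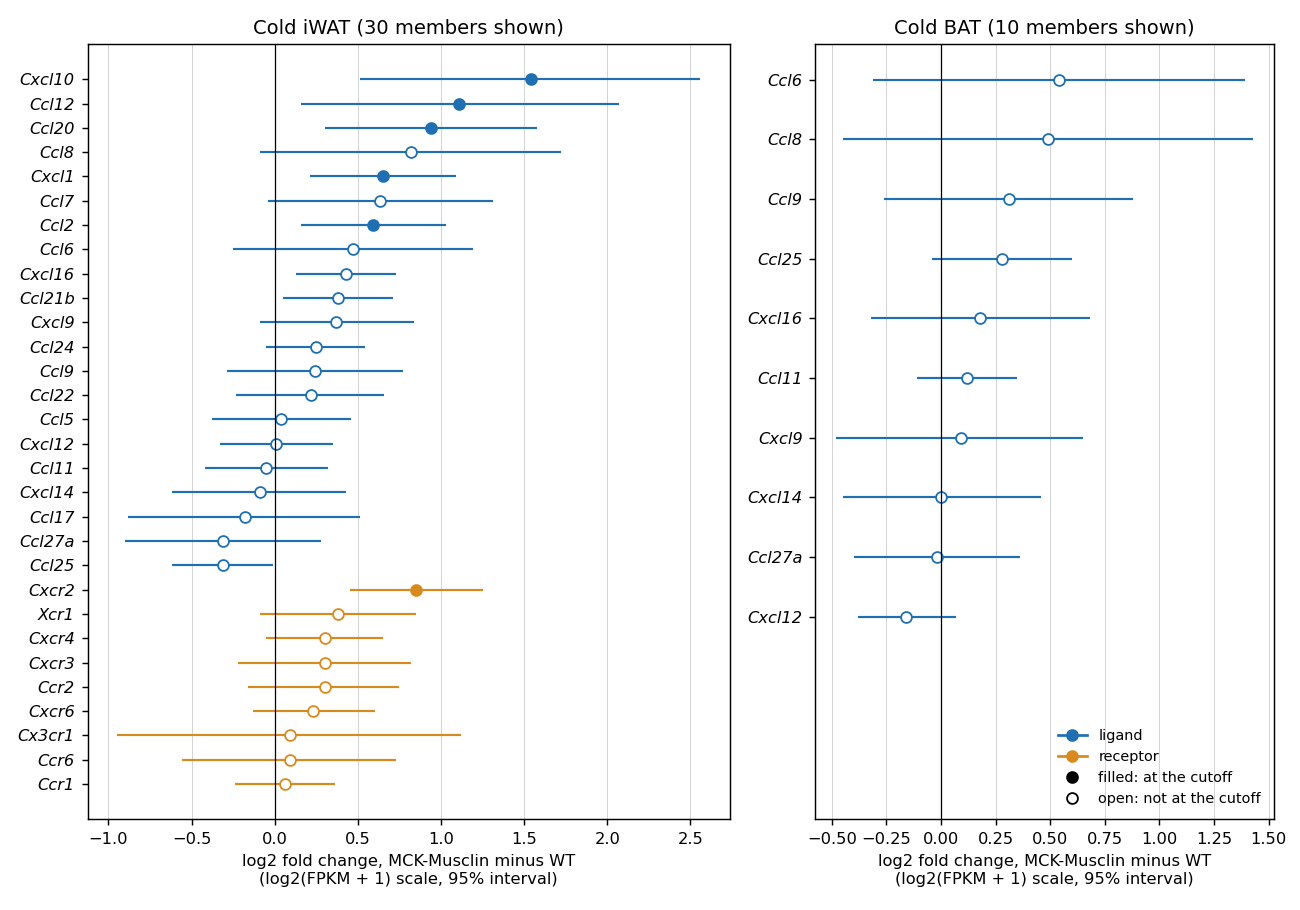
Log2 fold change of tested members, MCK-Musclin minus WT, in cold iWAT (left, 30 members) and cold BAT (right, 10 members), with the 95% interval from limma; filled points met the cutoff. The filled points in iWAT are led by Cxcl10 at 1.54, and there are none in BAT.

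Promoters are shown for 3 members at the cutoff in iWAT, those that hold a match to 1 of 2 motifs of inflammatory signalling. RefSeq promoters on GRCm38.p6, from 250 bases before to 50 after the gene start, were matched by symbol for 40 of the 54 member symbols. Both strands were searched for a core of the NF-kB motif, GGNNTTTCC, and a core of the interferon response motif, TTTCNNTTT, which share letters and can overlap, though the matches printed here do not. The NF-kB core is present in 5.82% of all 32851 promoters and in 8 of 47 member promoters, those of Ccl9, Ccl20, Ccr3, Cxcl1, Cxcl2, Cxcl3, Cxcl9 and Cxcl10. The interferon response core is present in 10.6% of all promoters and in 5 of the 47. Cxcl10, Cxcl1 and Ccl20 are the members at the cutoff with a match; the windows of Ccl12 and Cxcr2 hold neither core, and Ccl2 is not in the table. The capitals mark the matches, and a match describes letters, not a bound site. Only the letters given for each core were searched, so other forms of either motif were not marked.
Cxcl10 (chr5:92348840-92349139, minus strand): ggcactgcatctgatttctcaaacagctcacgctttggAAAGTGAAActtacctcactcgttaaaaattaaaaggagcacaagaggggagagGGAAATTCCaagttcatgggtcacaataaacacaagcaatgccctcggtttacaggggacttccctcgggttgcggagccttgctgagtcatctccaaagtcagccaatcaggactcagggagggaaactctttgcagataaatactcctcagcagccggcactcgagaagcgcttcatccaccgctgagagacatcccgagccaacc
Cxcl1 (chr5:90890995-90891294, plus strand): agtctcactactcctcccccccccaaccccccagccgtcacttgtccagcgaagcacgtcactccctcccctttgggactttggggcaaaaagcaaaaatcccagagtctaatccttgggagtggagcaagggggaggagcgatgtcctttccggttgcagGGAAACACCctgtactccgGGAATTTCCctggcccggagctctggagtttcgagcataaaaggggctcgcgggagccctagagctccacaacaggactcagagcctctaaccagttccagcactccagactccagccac
Ccl20 (chr1:83116516-83116815, plus strand): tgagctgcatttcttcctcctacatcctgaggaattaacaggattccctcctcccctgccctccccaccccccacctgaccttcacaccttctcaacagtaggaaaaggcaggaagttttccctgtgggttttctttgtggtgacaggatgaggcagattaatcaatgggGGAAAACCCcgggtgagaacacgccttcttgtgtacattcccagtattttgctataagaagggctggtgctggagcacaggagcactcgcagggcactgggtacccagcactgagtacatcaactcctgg
In Cxcl10 the interferon response core starts 212 bases and the NF-kB core 158 bases before the gene start, both on the opposite strand. Cxcl1 holds NF-kB cores that start 89 and 70 bases before the gene start, and Ccl20 holds 1 that starts 80 bases before it.

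Other genes of the chemokine system came from a list of 36 names with 32 genes tested in iWAT. At the cutoff 7 were higher and 0 lower, beside 5.04% of all genes higher. With TPM, median-ratio scaling and adipocyte centring 6, 6 and 15 were higher, beside 4.96%, 3.52% and 15.2% of all genes. Of the 32, 28 were above 0 as deposited (27, 27 and 29 with those scalings), beside 61.3% of all genes as deposited. Without single libraries 5 to 10 were higher at the cutoff and 0 to 1 lower, beside 4.32% to 6.91% and 0.754% to 1.74% of all genes. Of the 32, 15 had no overlap in the higher direction and 0 in the lower, beside 17.9% and 5.44% of all genes, and the median log2 fold change was 0.28. Of the 24 signalling genes 6 met the cutoff: Vav1 (0.77), Itgal (0.75), Dock2 (0.70), Rac2 (0.61), Plcb2 (0.58) and Itgb2 (0.54) on the log2 scale. Plcb2 did not meet it without WT replicate 2 (0.48), nor did Itgb2 with TPM (0.49), with median-ratio scaling (0.46), or without WT replicate 2 (0.42) or MCK-Musclin replicate 1 or 3 (0.48 each). Dock2, an activator of Rac that leukocytes need for migration, was at 18.8, 14.3 and 13.5 FPKM in WT and 25.5, 25.8 and 25.9 in MCK-Musclin libraries. The 3 MCK-Musclin libraries were nearly equal and above all WT libraries, with a limma adjusted p of 0.143. Ackr1, an atypical receptor of venules that binds inflammatory chemokines without signalling, was at 0.835, 3.70 and 1.12 FPKM in WT and 4.12, 3.01 and 5.15 in MCK-Musclin libraries. WT replicate 2 was within the MCK-Musclin values, with a log2 fold change of 0.93 (SE 0.35; limma adjusted p = 0.261) that met the cutoff only with all 6 libraries or without WT replicate 2 or MCK-Musclin replicate 2. Without the other 4 libraries in turn it was 0.67 to 0.91. The platelet chemokine Pf4 was at 63.3, 66.7 and 81.9 FPKM in WT and 79.3, 73.3 and 65.7 in MCK-Musclin libraries, and the groups overlapped. Gnai2, the inhibitory G protein subunit below the receptors, was the most abundant signalling gene, at 210 to 246 FPKM in WT and 244 to 282 in MCK-Musclin libraries.

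Every tested marker of B cells, T cells and lymph node had a log2 fold change above 0 in iWAT under each of the 4 scalings. As deposited, 61.3% of all 12197 genes were above 0. B cell markers, 6 of 6 at the cutoff, summed to 264, 155 and 135 FPKM in WT and 296, 399 and 385 in MCK-Musclin replicates 1 to 3, with Cd79a the most abundant. T cell markers, 4 of 6 at the cutoff and 6 of 6 without overlap, summed to 102, 78.9 and 99.8 in WT and 152, 144 and 151 in MCK-Musclin libraries, led by Cd3g. Lymph node stroma and vessel markers, 6 of 6 at the cutoff, summed to 339, 178 and 157 in WT and 369, 360 and 579 in MCK-Musclin libraries, led by Cxcl13. Of these 6, Madcam1 passed the filter only through the MCK-Musclin libraries, with a WT mean of 0.964 FPKM. The 3 sums did not overlap between the groups, and WT replicate 1 was the highest WT library in each. With median-ratio scaling 6 of 6 B cell, 4 of 6 T cell and 4 of 6 lymph node markers met the cutoff. Without single libraries 4 to 6 B cell and 4 to 5 T cell markers met it, and 3 lymph node markers did without WT replicate 2, WT replicate 3 or MCK-Musclin replicate 3.

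Neutrophil markers, of which 2 of 5 are listed in iWAT, summed to 4.07, 2.01 and 0.718 FPKM in WT and 6.12, 12.5 and 3.25 in MCK-Musclin libraries, led by S100a9. S100a8 met the cutoff, but with a WT mean of 0.634 FPKM it passed the filter only through the MCK-Musclin libraries. The sums overlapped, with MCK-Musclin replicate 2 the highest. Macrophage markers, 1 of 7 at the cutoff, summed to 298, 298 and 321 in WT and 417, 283 and 423 in MCK-Musclin libraries, led by C1qb. Here MCK-Musclin replicate 2 was the lowest of the 6 libraries, as it was the lowest MCK-Musclin library for Ccl6, Ccl8 and Ccl9. NK cell markers, 1 of 4 tested at the cutoff and led by Klrd1, summed to 11.9 to 17.1 in WT and 17.9 to 21.0 in MCK-Musclin libraries. Monocyte markers, 0 of 3 tested at the cutoff and led by Plac8, overlapped at 17.7 to 31.9 and 24.2 to 47.4. Mast cell markers, 3 of 5 at the cutoff and led by Cma1, were at 119 to 156 and 156 to 237. Dendritic cell markers, 2 of 6 at the cutoff and led by Cd209a, a list that also holds the member Xcr1, were at 17.4 to 18.7 and 20.1 to 23.8. Brown adipocyte markers, 3 of 4 lower at the cutoff and led by Cidea, summed to 428, 621 and 790 in WT and 478, 136 and 73.8 in MCK-Musclin libraries. Of the remaining lists, the cutoff was met by Tnni3, the 1 cardiac muscle marker tested, at 0.50 but not with median-ratio scaling (0.44) or without WT replicate 3 (0.43) or MCK-Musclin replicate 1 (0.34), and by 0 of 6 adipocyte, 4 endothelial, 4 fibroblast, 5 skeletal muscle, 3 hepatocyte, 1 neuronal and glial and 1 intestinal markers. Leaving out single libraries moved other counts: brown adipocyte markers lower at the cutoff were 0 without WT replicate 3, MCK-Musclin replicate 2 or MCK-Musclin replicate 3, and skeletal muscle markers lower were 5 without WT replicate 1. Mast cell markers higher at the cutoff were 1 to 4, macrophage 0 to 2, neutrophil 1 to 2, dendritic cell 1 to 2 and fibroblast 0 to 1, and adipocyte markers lower were 0 to 1. None of the markers in these lists that are tabulated for iWAT is at 0 in all 6 libraries. The part of any of these cell types in the members' differences was not tested.

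**Figure D3:**
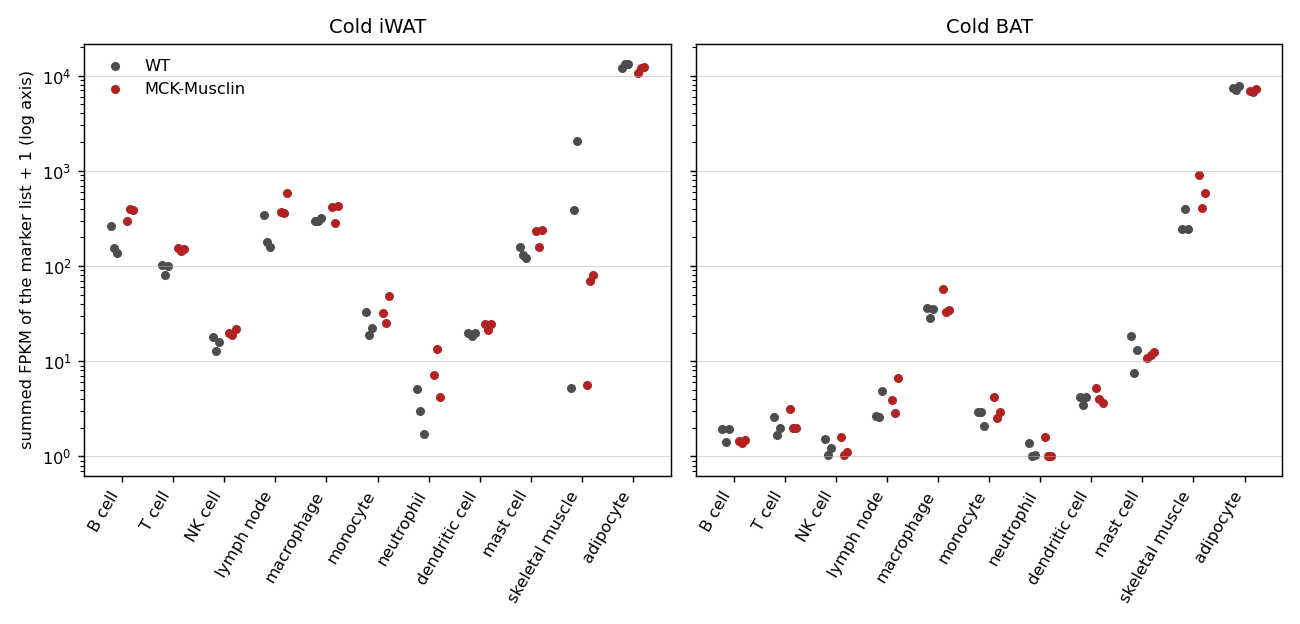
Summed FPKM of 11 marker lists, with 1 added, on a log axis, in each library of cold iWAT (left) and cold BAT (right); points are libraries, WT in grey and MCK-Musclin in red. B cell, T cell and lymph node sums are higher in all MCK-Musclin libraries of iWAT, where each marker's log2 fold change is above 0 under all 4 scalings, and in BAT they lie between 0.396 and 5.59 FPKM.

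The counts in iWAT moved with the scaling. Centring each library on the 6 adipocyte markers shifted the median of all genes from 0.06 to 0.26, and 15 members then met the cutoff, beside 15.2% of all genes higher. Under that centring Cxcr2 (limma adjusted p = 0.0472) and Cxcl10 (0.0363) passed adjusted p, beside 135 of all 12197 genes, within ranges over the alternatives of 0.0472 to 0.372 for Cxcr2 and 0.0363 to 0.405 for Cxcl10. Of the 31 members, 23 lay above the median of all genes as deposited, 24 with TPM, 24 with median-ratio scaling and 23 with the centring. With TPM and with median-ratio scaling 6 members had no overlap in the higher direction, Cxcl10, Ccl21b and Ccl24 no longer among them, beside 13.4% and 11.7% of all genes. The share of higher genes among all genes at the cutoff was 84.8% as deposited, 75.1% with TPM, 70.0% with median-ratio scaling and 97.7% with the centring. In that order 7, 7, 6 and 15 members were higher, beside 5.04%, 4.96%, 3.52% and 15.2% of all genes tested. Under each scaling 0 members were lower, beside 0.902%, 1.65%, 1.51% and 0.361% of all genes.

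In cold BAT no member met a call rule. Of the 58 IDs listed, 10 had a mean FPKM of at least 1 and were tested, all of them ligands, and 48 were not tested. At the cutoff for BAT, which differs in asking for more than 0.3 on the log2 scale, 0 of 10 members were higher and 0 lower, beside 1.85% and 2.15% of 10893 genes. No member had libraries that do not overlap, beside 4.38% of genes higher and 5.63% lower. Leaving out single libraries gave members at the cutoff without WT replicate 1 (Ccl25 at 0.38) and without MCK-Musclin replicate 2 (Ccl6 at 0.93 and Ccl8 at 0.88), beside 1.71% and 2.57% of all genes higher. It gave members without overlap when WT replicate 1 or MCK-Musclin replicate 3 was left out (Ccl11 and Ccl25) and when MCK-Musclin replicate 2 was (Ccl6), beside 8.78%, 10.4% and 9.58% of all genes higher. By limma adjusted p under 0.05 there were 0 members and 1 of all genes, 0.00918%, and at an unadjusted p under 0.05 there were 0 members and 533 genes. The median log2 fold change was 0.15 for the 10 members and -0.01 for all genes tested, and 8 of the 10 were above 0 (9 with TPM, 8 with median-ratio scaling, 10 with adipocyte centring), as were 5200 of the 10893 genes. The centring moved the median of all genes to 0.16, and the share of higher genes at the cutoff was 46.3% as deposited, 55.8% with TPM, 50.9% with median-ratio scaling and 92.1% with the centring. With the centring 1 member was higher at the cutoff, beside 4.53% of all genes tested, against 0 members and 1.85% as deposited.

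Cxcl12 was the most abundant member in BAT, at 17.1, 19.5 and 18.0 FPKM in WT and 17.2, 15.9 and 15.5 in MCK-Musclin replicates 1 to 3, with a log2 fold change of -0.16 (SE 0.10). WT replicate 1 lay just below MCK-Musclin replicate 1, so the groups overlapped. Ccl6 was at 13.6, 10.6 and 12 FPKM in WT and 33.2, 9.94 and 17.0 in MCK-Musclin libraries. MCK-Musclin replicate 1 was far above the others, and the log2 fold change of 0.54 had an SE of 0.36 (limma adjusted p = 0.968). The same library was the highest for Ccl9 (3.26 FPKM against 1.17 to 1.41 elsewhere), Cxcl16 (2.27 against 0.896 to 1.23), Ccr2 (1.42 against 0.280 to 0.682) and Cxcr4 (1.13 against 0.228 to 0.462). It is the library with the highest macrophage and skeletal muscle marker sums given above, whose part in these values was not tested. Without it 0 members met the cutoff or separated the groups, and the log2 fold changes of Ccl6 (0.11), Ccl9 (0.02) and Cxcl16 (-0.06) were near 0. Without MCK-Musclin replicate 2 Ccl6 (0.93) and Ccl8 (0.88) met the cutoff, and Ccl8 was 0.15 without MCK-Musclin replicate 3.

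Ccl27a in BAT was at 9.01, 8.58 and 10.2 FPKM with WT genotype and 9.86, 10.9 and 6.99 in MCK-Musclin libraries, which spans the WT values. Ccl11 was at 7.13, 6.35 and 6.62 in WT and 7.34, 7.62 and 7.09 in MCK-Musclin libraries, where 7.09 and 7.13 are the only values out of order. Cxcl14, a constitutive ligand of epithelia and other tissues, was at 6.54, 5.05 and 6.87 in WT and 5.31, 5.11 and 8.38 in MCK-Musclin libraries. The 95% intervals of their log2 fold changes were -0.40 to 0.36 for Ccl27a, -0.11 to 0.35 for Ccl11 and -0.45 to 0.46 for Cxcl14. Ccl25 was at 3.94, 3.12 and 2.87 FPKM in WT and 4.0, 4.76 and 3.88 in MCK-Musclin libraries, and WT replicate 1 made the groups overlap. It met the cutoff without that library (0.38) and with adipocyte centring (0.44). Exons of Ccl25 overlap those of Elavl1 and exons of Ccl27a those of Il11ra1, and the alignment was without strand. Cxcl9 spanned 2.25 to 3.84 FPKM in WT and 2.38 to 4.95 in MCK-Musclin libraries, and Ccl8 1.4 to 3.97 and 1.68 to 6.40. Of the genes that met the cutoff in iWAT, Cxcl10, Cxcl1, Ccl2, Ccl12 and Cxcr2 had a mean FPKM under 1 in both groups of BAT, and Ccl20 is listed at 0 in all 6 libraries. Among the most abundant receptors of BAT, Ccr2, Cxcr4, Ccr10 and Cx3cr1 exceeded 1.42 FPKM in none of the 6 libraries. Ccr10 spanned 0.0585 to 0.346 and Cx3cr1 spanned 0.0563 to 0.340.

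Markers of B cells summed to between 0.396 and 0.960 FPKM in BAT, of T cells to between 0.678 and 2.13, and of neutrophils to between 0 and 0.593, with Ly6g at 0 in all 6 libraries. Among 19 chemokine pathway genes tested in BAT, 1 was higher and 1 lower at the cutoff, beside 1.85% and 2.15% of all genes. The counts were the same with TPM and median-ratio scaling, and 2 and 0 with adipocyte centring. Without single libraries 0 to 1 were higher and 1 to 2 lower, beside 1.54% to 2.57% and 2.21% to 2.76% of all genes. Arrb2, an arrestin that uncouples and internalises the receptors, was at 6.09, 4.46 and 4.70 FPKM in WT and 7.01, 5.85 and 7.54 in MCK-Musclin libraries, which overlap. Its log2 fold change of 0.36 met the cutoff without WT replicate 1 or MCK-Musclin replicate 2 and not without any other library (0.29 to 0.34). Nfkbia, an NF-kB inhibitor, was at 12.5, 13.5 and 16.8 in WT and 8.88, 9.89 and 10 in MCK-Musclin libraries, all lower than WT, with a log2 fold change of -0.52 (SE 0.13; limma adjusted p = 0.929), which did not meet the cutoff with adipocyte centring (-0.35).

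The MCK-Musclin effects in iWAT and BAT were compared directly for the 10 members tested in both. None of the 10 had a limma adjusted p under 0.05, nor had any of the 9757 genes tested (0%). At an unadjusted p under 0.05 there were 1 member and 982 genes. Ccl25 was that member, with a log2 fold change of -0.31 in iWAT and 0.28 in BAT, a difference of -0.59 (SE 0.18; limma adjusted p = 0.413). Exons of Ccl25 overlap those of Elavl1, and reads of both genes cannot be told apart without strand. For the genes named above at the cutoff in iWAT the difference was not tested, because they did not pass the filter in BAT.

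Levels in the 2 depots can be set side by side without a test, since the tables were normalised separately and the 10 most abundant genes take 48.4% to 51.3% of the summed FPKM in BAT against 11.9% to 13.0% in iWAT. Of the 35 gene IDs listed in both tables, the WT libraries of iWAT all lay above those of BAT for 30 (85.7%) and below for 1, Ccl27a. Among all 13750 genes listed in both, the shares were 74.0% above and 8.42% below. Only genes listed for iWAT, 13756 against 55487 for BAT, could enter, so the shares describe that selection alone. Its part in them was not tested. Ccl5 had a mean of 48.1 FPKM in iWAT and 0.470 in BAT of cold WT mice. That BAT mean rests on WT replicate 3, since Ccl5 was at 0, 0 and 1.41 FPKM in WT replicates 1 to 3. Ccl20, Ccl25, Cx3cl1 and Cx3cr1 overlapped, with Ccl25 at a mean of 3.94 in iWAT and 3.31 in BAT.

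Across the 7 tissues, 41 of the 58 gene IDs reached an FPKM of 1 in some tissue, 24 reached 5, and 5 are listed at 0 in every tissue. With 1 library each, levels have no replicate check and no test. A gene was called dominant in a tissue where its FPKM + 1 was at least 4-fold that of the next tissue. This held for 12 of the 41 member gene IDs, beside 17.8% of all 18327 genes with an FPKM of at least 1 in some tissue. Near-identical copies are counted separately, and the 12 include the copies of Ccl27a and Ccl27b, all in brain. The highest FPKM was in white adipose tissue for 17 member gene IDs, small intestine for 13, brain for 8 and liver for 3, and in the other 3 tissues for 0. Copies of Ccl21b, Ccl21c and Ccl21d are among the 17 and those of Ccl27a and Ccl27b among the 8, so each group of copies enters more than once. Among all 18327 genes those shares were 20.2% in white adipose tissue, 27.1% in small intestine, 29.7% in brain and 8.18% in liver, against 41.5%, 31.7%, 19.5% and 7.32% of the member gene IDs. The remaining genes were highest in tibialis anterior muscle, heart or brown adipose tissue. In those libraries the 10 most abundant genes take 41.0%, 51.4% and 52.4% of the summed FPKM, against 17.0% to 25.1% in the rest. The part of this in the counts was not tested.

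Small intestine was dominant for Ccl25, Ccl28, Ccl20 and Ccl5. Ccl25 had an FPKM of 221 in small intestine and from 1.41 to 4.97 in the other tissues, a lead of 37.2-fold in FPKM + 1. Ccl28, a mucosal ligand of Ccr10, was at 29.9 there and at most 0.862 elsewhere. Ccl20 was at 7.03 in small intestine and is listed at 0 in the other 6 tissues. Ccl5 was at 22.3, next to 2.91 in white and 1.60 in brown fat. The receptors Ccr9 (2.17 FPKM) and Ccr10 (2.08) were also highest in small intestine. Cxcl16 was at 24.9 in small intestine and 8.79 in white adipose tissue, short of 4-fold. Summed markers of B cells (37.4 FPKM), T cells (56.3), NK cells (53.8) and monocytes (296) were also highest in small intestine, led there by Cd79a, Cd3g, Gzma and Plac8, and their part in these levels was not tested.

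Brain was dominant for Cx3cl1, a membrane-bound ligand of neurons, at 86.6 FPKM against 17.1 in small intestine. Its receptor Cx3cr1, carried by microglia and other macrophages, was at 8.51 in brain and 5.64 in small intestine, which is not a 4-fold lead. Ccl27a was also dominant in brain, with 30.7, 4.70 and 3.35 FPKM for its 3 IDs, as was Ccl27b at 3.39. These IDs are near-identical copies, so their split is uncertain. Exons of the ID at 30.7 FPKM overlap those of Il11ra1. Cxcl14 was highest in brain at 36.3, followed by 22.2 in tibialis anterior muscle and 21.9 in small intestine. Muscle thus had Cxcl14 as its top member, 41.3% of its summed ligand FPKM.

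Liver was dominant for Cxcl1, at 20.6 FPKM against 3.67 in brown adipose tissue, and Cxcl12 was highest there at 51.6, followed by 27.8 in white adipose tissue and 21.1 in heart. White adipose tissue, whose depot is not given in the sources used here, was dominant for Ccl7 (15.3 against 3.00 in brown adipose tissue) and Ccl24 (11.4 against 1.58 in liver). Ccl6 was at 213 in white adipose tissue and 154 in small intestine, and Ccl9 at 26.9 in white adipose tissue and 20.6 in liver. Ccl11 was at 38.2, 16.3 and 15.9 in white adipose tissue, small intestine and brown adipose tissue. Cxcl9 was highest in the same 3 tissues, at 24.0, 8.23 and 9.13. Ccl8 was at 22.6 in white adipose tissue and 8.57 in small intestine, and Ccl2 at 13.5 in white and 3.58 in brown adipose tissue. Ccr2 was at 9.01 in white and 1.54 in brown fat, just under 4-fold at 3.95 in FPKM + 1. Ccl21c (8.46 FPKM), Ccl21d (5.65) and the Ccl21b copies (4.09, 5.67 and 5.73) were likewise highest in white adipose tissue. Macrophage markers summed to 351 FPKM in white adipose tissue, 107 in small intestine and 10.8 to 96.5 in the others, led by C1qa, and lymph node markers to 43.5 in white adipose tissue, led by Ccl21a. Dendritic cell (18.9), mast cell (25.8), endothelial (242) and fibroblast (224) markers were also highest in white adipose tissue, and their part in this pattern was not tested.

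**Figure D4:**
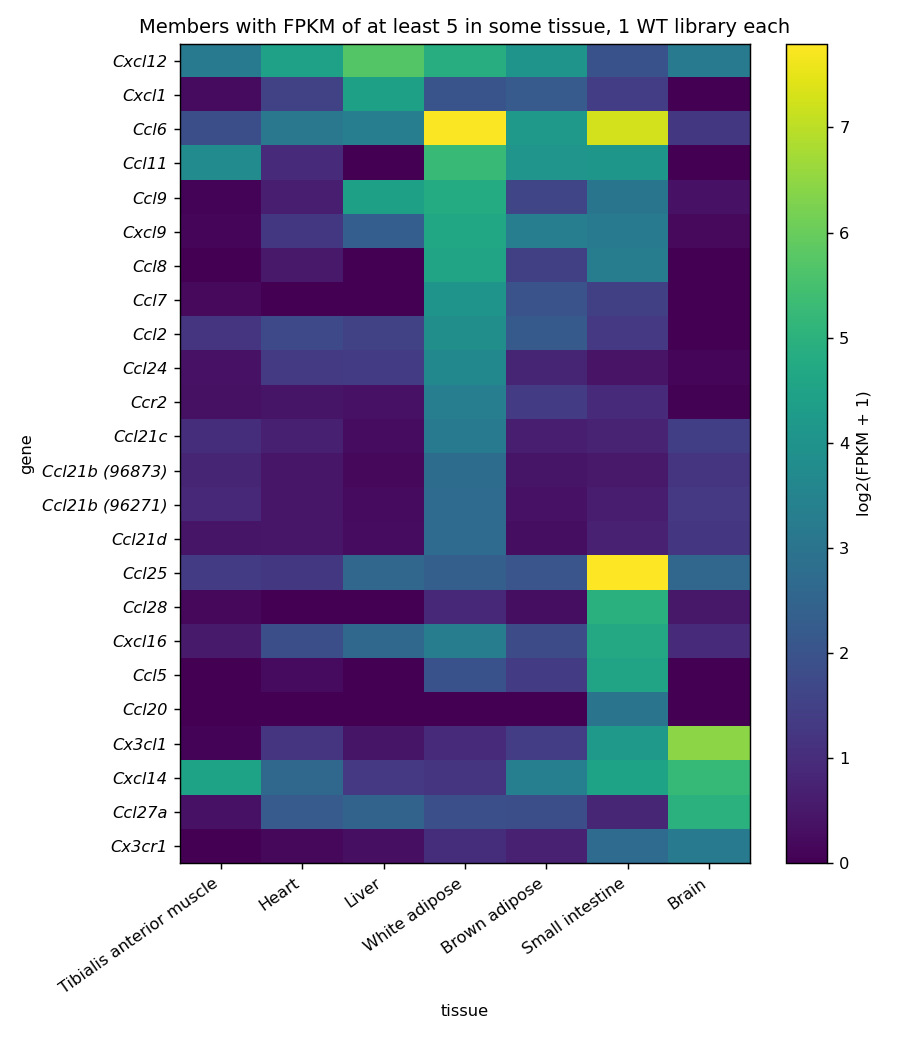
Level of the 24 member gene IDs with an FPKM of at least 5 in some tissue, as log2(FPKM + 1) by colour, in 1 WT library of each of 7 tissues; genes are grouped by the tissue with the highest level, and digits in brackets tell copies of Ccl21b apart. Ccl25 at 221 FPKM in small intestine and Ccl6 at 213 FPKM in white adipose tissue are the highest values, while the highest in muscle is Cxcl14 at 22.2 and in heart Cxcl12 at 21.1.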

How the data were processed

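Messenger RNA was captured with oligo(dT), made into SMART-RNAseq libraries and sequenced at KAITAI-BIO (Hangzhou, China). Reads were cleaned by fastp and bowtie2 and mapped to mm10 (GRCm38) by HISAT2 2.1.0 without strand, and the authors deposited FPKM from StringTie, while the submitters' processing notes also list Bowtie2 2.4.1 and Cuffdiff. The iWAT file also holds log2 fold changes, p-values, FDR and group means of the authors' own comparison, which were not used. For the 7 tissues and for BAT, 287 repeated lines per table were used once. Read depth is unknown, and the steps between low BAT values gave no clear unit.

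Members and lists were chosen with earlier results of these data known. limma 3.58.1 in R 4.3.3 (eBayes, with a trend) was run on log2(FPKM + 1) in each table for genes averaging 1 FPKM or more, two-sided, with Benjamini-Hochberg adjustment, and was tested on simulated data. Gene positions and exon overlaps came from GENCODE on GRCm38. Python 3.11.15, numpy 2.4.6, pandas 2.3.3, scipy 1.17.1 and matplotlib 3.10.9 were used.

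Any member could be named, except 1 that is counted but not reported here. Library values are given for members at the cutoff or without overlap and for the 5 most abundant ligands and receptors of iWAT and of BAT, and tissue values for members that were dominant or reached 5 FPKM. Members given outside that rule, such as Ccl7 and Cxcl9 in iWAT and Ccl25 in BAT, were chosen after their values were seen. Pathway genes and markers are named where at the cutoff or the most abundant of a list. Alternatives were another pseudocount, filter or scaling, no trend, a replicate block, and leaving out each library. A filter in each group was added after seeing the data.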

Additional observations from a re-analysis of the deposited data

How the results depend on the processing

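In iWAT, the 7 members higher at the cutoff became 2 of 15 tested with a mean FPKM of at least 5, beside 5.22% of 8291 genes, and 15 when centred on adipocyte markers, beside 15.2%, which also brought 2 members and 135 of all 12197 genes under an adjusted p of 0.05, each from 0. The 9 members higher without overlap became 4 of the same 15, beside 19.3% of the 8291 genes. Leaving out each library in turn gave 5 to 10 members higher at the cutoff, 0 to 1 lower, 0 to 1 by limma adjusted p and 9 to 15 without overlap, while all genes gave 4.32% to 6.91% higher, 0.754% to 1.74% lower, 0 to 86 genes by adjusted p and 22.7% to 25.7% without overlap. In BAT, 0 members were higher at the cutoff and 1 was when centred on adipocyte markers, beside 4.53% of all genes. With no filter on low values 1 member, Ccl12, was lower at the cutoff and 1, Ccl21d, was higher without overlap, out of 48 tested and beside 1.06% and 3.91% of all genes. Median-ratio scaling and adipocyte centring each left 2 members, Ccl11 and Ccl25, higher without overlap, beside 5.09% and 8.55% of all genes. Leaving out each BAT library gave 0 to 2 members higher at the cutoff and 0 to 2 without overlap, while all genes gave 1.54% to 2.57% and 7.97% to 10.4%. The median of the members, 0.30 in iWAT and 0.15 in BAT, ranged from 0.25 to 0.39 and from 0.06 to 0.20 without single libraries. In iWAT it was 0.23 with median-ratio scaling and 0.50 when centred, and in BAT 0.00 with a mean FPKM of at least 5, 0.03 with no filter and 0.31 when centred. The 12 member gene IDs dominant in a tissue became 20 with a pseudocount of 0.1 and 26 with a lead of 1 on the log2 scale. The share of all 18327 genes was 17.8%, 26.2% and 37.8%. With TPM 17 were dominant, beside 23.2% of all genes. With an FPKM of at least 5 in some tissue 9 of 24 were, beside 22.3% of 13444 genes. Fewer members are tested with the higher filter and more can pass the lower lead; the cause of the other shifts was not tested.

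Log2 fold changes near 0 changed sign for some members. Among the members chosen by the fixed rule these were, in iWAT, Ccl11 at 0.15 when centred on adipocyte markers and between -0.15 and 0.12 without single libraries, 0.02 among them; Ccl5 at -0.01 with TPM, -0.04 with median-ratio scaling and between -0.16 and 0.18 without single libraries, -0.02 among them; Ccr6 between -0.20 and 0.28 without single libraries, -0.08 among them; and Cxcl12 at -0.05 with TPM, -0.07 with median-ratio scaling and between -0.11 and 0.14 without single libraries, -0.06 and -0.01 among them. In BAT these were Ccl27a at 0.01 with TPM, at 0.15 when centred and between -0.14 and 0.15 without single libraries, 0.05 among them, Cxcl12 at 0.01 when centred, and Cxcl14 between -0.20 and 0.11 without single libraries, -0.11 among them. Outside that rule, signs also changed for Cxcl14 (0.11 when centred, -0.30 to 0.07 without single libraries), Ccl17 (0.02 when centred, -0.47 to 0.03), Ccr1 (-0.01 to 0.12) and Cx3cr1 (-0.39 to 0.44) in iWAT and for Cxcl16 (-0.06 to 0.32) and Cxcl9 (-0.16 to 0.25) in BAT. Of members chosen by that rule with a log2 fold change of 0.2 or more in size, a move of over 1.5 times without leaving out a library was also seen for Cxcl1 (0.98 with a pseudocount of 0.1) and, when centred, for Ccl21b (0.58), Ccl24 (0.45), Ccl25 (-0.11), Ccr2 (0.50) and Cxcr4 (0.50) in iWAT. Over all members tested and all alternatives, 33 values changed sign, 527 kept sign and side of the cutoff, 10 lost the call and 21 gained it.

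Groups share replicate numbers. Correlations of same-numbered WT and MCK-Musclin libraries were 0.235, 0.0615 and 0.107 in iWAT and -0.0951, -0.00463 and 0.00937 in BAT, so the numbers were not read as pairs. With a replicate block, 8 iWAT members in place of 7 were higher at the cutoff (Ccl7 and Ccl8 gained, Ccl12 lost) and 0 were lower, beside 5.08% and 1.26% of all genes. In the same fit 0 members had an adjusted p under 0.05, as did 0 of all genes. The 9 members without overlap, beside 17.9% of all genes, and the median of 0.30 stayed as they were. In BAT the replicate block gave 0, 0, 0 and 0 with a median of 0.15, and 0 members differed between the depots. Of all BAT genes 1.96% were higher and 2.26% lower at the cutoff with that block.

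Limits are 3 mice a group, 1 library a tissue, unknown depth, alignment without strand, near-identical copies of Ccl21b and Ccl27a, and an iWAT table that lists 35 of the 58 gene IDs.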

Other observations

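Other genes of the chemokine system differed in where they were highest among the 7 tissues, with 1 library each and no test. Dpp4, a protease that trims many chemokines, was at 102 FPKM in small intestine, 37.7 in liver and 11.5 in white adipose tissue. Sdc4, a proteoglycan of the cell surface, was at 151 in liver, 64.7 in small intestine and 33.8 in brain. Ackr4, a scavenger of Ccl19, Ccl21 and Ccl25, was at 7.24 in white adipose tissue and at most 1.04 elsewhere. Ackr1 was highest in brain at 6.75, followed by 2.27 in white adipose tissue. The platelet chemokine Pf4 was at 68.8 in white and 12.7 in brown fat, whereas Ppbp, the other platelet chemokine, reached at most 0.255 in any tissue. These genes were named after their values were seen.

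In BAT, MCK-Musclin replicate 1 was also the highest library for Pf4, at 17.2 FPKM against 4.69 to 7.14 in the other 5, as it was for Ccl6 and Ccl9.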
